A study of Homo sapiens with 120 samples.

Results

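ΔATG cells are H1 cells, an established line of human embryonic stem cells, in which the gene LNCPRESS1 carries an edit that, from its name, removes a start codon. They were compared before differentiation (day 0) with unedited H1 cells (WT). The libraries were chosen by titles that give the genotype ΔATG or WT and day 0. That gave 2 ΔATG libraries (a and b) and 2 WT libraries (a and b), 4 of the 120 libraries of the study. The 2 day 0 libraries of a knockout of LNCPRESS1 (KO) are set beside them. All cells of these groups grew on a Matrigel or Geltrex coat in mTeSR Plus, a medium that keeps stem cells undifferentiated. Polyadenylated RNA was read as stranded libraries. The other libraries follow ΔATG, KO and WT cells over days 1 to 5 of differentiation with BMP4, with SMAD inhibitors (SMADi) or with an endoderm kit (Endo), or belong to an overexpression experiment that is not used here. How many clones carry the edit, and whether the libraries of a group come from separate cultures, is not stated. Genotype and clone therefore cannot be told apart. P-values measure the spread between libraries of a group over all 96 libraries of the differentiation experiment, not over these 4 alone. That spread may be technical.

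LNCPRESS1 (lncPRESS1) is a long non-coding RNA of pluripotent cells. It is known as a gene that p53 represses, and its RNA is known to bind SIRT6, a deacetylase of histone H3, and to keep it from chromatin of pluripotency genes. Some RNAs annotated as non-coding hold a short open reading frame, and deleting the start codon of such a frame is the usual way to ask whether a peptide, rather than the RNA, matters.

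Total counts were 59577917 and 49216060 in the ΔATG libraries, 54126120 and 43952571 in the KO libraries and 57128783 and 52360333 in the WT libraries. Levels are counts scaled to the library total after TMM scaling of that total (CPM). Log2 fold changes are ΔATG over WT with the SE of the fit. Rose, fell and called are used of genes with an adjusted p under 0.05 in the edgeR test. Libraries with the same letter deviated together only in part: the differences b minus a correlated at 0.37 between ΔATG and WT over 14349 genes. The ΔATG minus WT difference in log2 CPM is therefore also given within letter a and within letter b, without a test. The 8 markers of undifferentiated stem cells summed to 7836 and 7278 CPM in ΔATG, against 8009 and 7408 CPM in WT, and 0 of them were called. Over the 4 libraries the 5 markers of streak and mesoderm summed to 1.35 to 1.79 CPM, the 4 of endoderm to 0.675 to 2.83 CPM, the 3 of neuroectoderm to 0.407 to 0.821 CPM and the 3 of blood and endothelium to 0.693 to 0.914 CPM. The 5 markers of amnion and trophoblast summed to 15.7 to 18.2 CPM, nearly all of it KRT7, with TFAP2B at 0. The 5 fibroblast markers summed to 450.05 to 516 CPM, nearly all of it COL1A1 and COL1A2, with LUM at 0. In RNA from whole cultures, fewer cells of a type and less RNA per cell cannot be told apart.

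LNCPRESS1 (ENSG00000232301, chr7:101299578-101301346, GRCh38, plus strand) was present in ΔATG cells. It measured 53.1 and 35.2 CPM in ΔATG and 13.2 and 5.605 CPM in KO, against 21.4 and 40.6 CPM in WT. The ΔATG and WT libraries overlapped: ΔATG a was the highest and WT a the lowest of the 4. The difference was 1.31 in letter a and -0.20 in letter b, and LNCPRESS1 was not called between ΔATG and WT (0.51 ± 0.28, adjusted p = 0.405). Against KO its RNA was higher in ΔATG (2.23 ± 0.30, adjusted p = 7.14e-07). A deleted start codon need not change the level of an RNA, so this level does not check the label.

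Of the 9 other tested genes within 100000 bases of LNCPRESS1, 1 was called. COL26A1, which encodes a collagen chain, measured 85.3 and 76.6 CPM in ΔATG, against 103 and 87.3 CPM in WT and fell at the edge of the threshold (-0.24 ± 0.07, adjusted p = 0.0495). EMSLR, a non-coding RNA gene beside LNCPRESS1, measured 83.1 and 59.9 CPM in ΔATG, against 51.5 and 57.1 CPM in WT. Both ΔATG values lay above both WT values, with a difference of 0.69 in letter a and 0.07 in letter b. EMSLR was not called (0.40 ± 0.14, adjusted p = 0.101), and passed narrowly with a replicate block for the letter (adjusted p = 0.0499). The remaining neighbours were not called, among them PLOD3, a lysyl hydroxylase of collagen (-0.16 ± 0.09), FIS1, a mitochondrial fission factor (-0.01 ± 0.13), and ZNHIT1 (-0.12 ± 0.13).

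Across the transcriptome 1020 of 25821 tested genes were called between ΔATG and WT, 3.95% of those tested. Of these 349 rose (1.35%) and 671 fell (2.6%). Counts of called genes in the lists below are to be read beside these shares. With a replicate block for the letter 2074 were called (8.03%), 688 higher and 1386 lower. Both ΔATG libraries lay on one side of both WT libraries for 995 of the 1020 called genes and for 34.9% of all tested genes. The difference had the same sign in both letters for 1012 of the called genes and for 57.8% of all tested genes. It was larger in letter a than in letter b for 886 of the 1020 called genes and for 15944 of all 25821 tested genes. It was at least 0.5 on the log2 scale in both letters for 263 called genes and for 2005 of all tested genes. The median of the genes that rose was 0.85 in letter a and 0.38 in letter b, and that of the genes that fell was -0.55 in letter a and -0.26 in letter b.

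**Figure D1:**
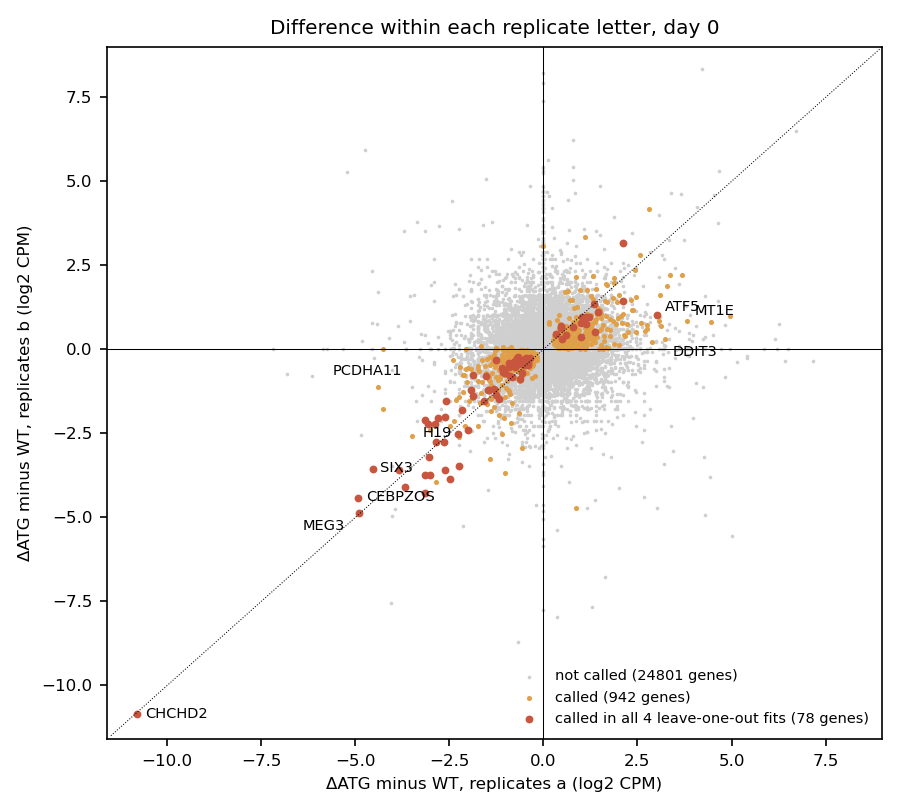
ΔATG minus WT in log2 CPM within replicate letter a (horizontal axis) and letter b (vertical axis), each point 1 tested gene. Grey points were not called, orange points were called, and red points (78 genes) were also called when any 1 of the 4 libraries was left out; the dotted line marks equal differences. Called rises lie mostly below the dotted line, toward letter a, whereas CHCHD2, MEG3 and CEBPZOS lie on or near it.

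How many genes were called depended on single libraries, WT a most of all. The counts were 459 without ΔATG a, 848 without ΔATG b, 108 without WT a and 1759 without WT b. Of the 1020 genes, 368 were still called in the same direction without ΔATG a, 588 without ΔATG b, 104 without WT a and 905 without WT b. In all 4 of these fits 78 genes were called (0.302% of those tested), 18 higher and 60 lower. A fit of the 4 libraries alone, which has 2 residual degrees of freedom, called 3 genes, among them CHCHD2 and CEBPZOS.

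CHCHD2, a protein of the mitochondrial intermembrane space that also acts in the nucleus on oxygen-responsive genes, was not detected in ΔATG. It had 0 counts in both ΔATG libraries, against 3838 and 3878 counts in WT. Its levels were 42.95 and 48.1 CPM in KO, against 64.98 and 68.1 CPM in WT. With a floor of 3 counts per library it was at least 1220-fold lower in ΔATG than in WT (adjusted p = 8.58e-34). The gene lies at chr7:56101569-56106576 on the minus strand, on the same chromosome as LNCPRESS1.

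CEBPZOS (chr2:37196488-37216193, plus strand), which encodes a small mitochondrial protein from the strand opposite CEBPZ, measured 1.91 and 2.41 CPM in ΔATG, against 59.2 and 52.2 CPM in WT. It was -4.69 ± 0.20 on the log2 scale (adjusted p = 6.25e-25), with differences of -4.92 in letter a and -4.42 in letter b. Both of its neighbours rose. CEBPZ, a nucleolar factor of ribosome assembly on the minus strand that overlaps CEBPZOS, measured 359 and 373 CPM in ΔATG, against 233 and 255 CPM in WT (0.59 ± 0.11, adjusted p = 3.58e-04). NDUFAF7, a methyltransferase that helps assemble respiratory complex I and starts beside CEBPZ, measured 79.6 and 83.6 CPM in ΔATG, against 57.1 and 51.5 CPM in WT (0.59 ± 0.10, adjusted p = 8.40e-05). CEBPZ and NDUFAF7 were named after their values were seen, and reads of overlapping genes are kept apart only by the strand of the library.

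**Figure D2:**
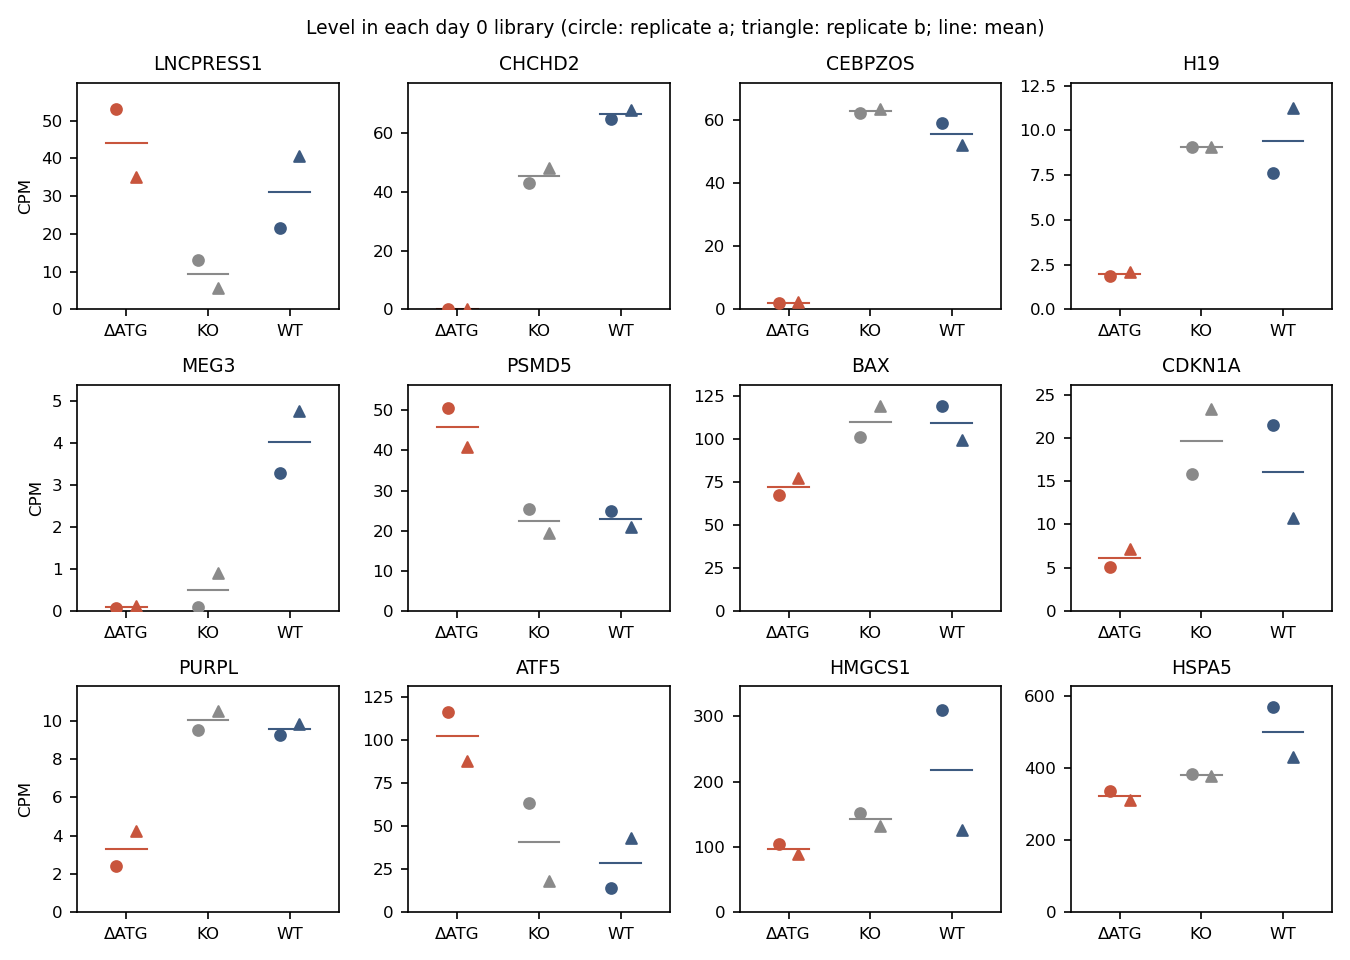
CPM of 12 genes in each day 0 library; circles are replicate a, triangles replicate b and horizontal lines the group means, for ΔATG, KO and WT from left to right. ΔATG and WT overlap for LNCPRESS1 and for none of the other genes shown, and for CDKN1A, ATF5 and HMGCS1 one WT library lies closer to ΔATG than the other does.

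A pair of maternally expressed imprinted RNAs fell. H19, the non-coding RNA beside IGF2, measured 1.85 and 2.097 CPM in ΔATG and 9.07 and 9.09 CPM in KO, against 7.62 and 11.2 CPM in WT (-2.26 ± 0.30, adjusted p = 1.09e-06). Its difference was -2.02 in letter a and -2.40 in letter b. MEG3, the non-coding RNA of the DLK1 domain on chromosome 14, had 5 and 7 counts in ΔATG, against 194 and 271 counts in WT (-5.31 ± 0.57, adjusted p = 2.02e-09). MEG3 was at 0.101 and 0.907 CPM in KO, against 3.28 and 4.76 CPM in WT, so its KO libraries too lay below both WT libraries. H19 and MEG3 were each low in both ΔATG libraries, well apart from both WT libraries. RTL1, the paternally expressed retrotransposon-derived gene of the MEG3 domain, was called higher on 4 and 5 counts in ΔATG, against 0 and 0 counts in WT, which is too few for a fold change. NDN, a paternally expressed gene of the Prader-Willi region, measured 19.2 and 20.8 CPM in ΔATG, against 34.1 and 24.04 CPM in WT (-0.54 ± 0.09, adjusted p = 1.48e-04). Maternally expressed genes numbered 14 tested, of which 2 fell and 0 rose, with a median of -0.14. Paternally expressed genes numbered 19, of which 1 rose and 1 fell, with a median of -0.10, beside 0 for all tested genes. Among 13 tested DNA methylation enzymes and cofactors 1 fell and 0 rose. This was TRIM28, a corepressor that keeps imprints, at 796 and 759.8 CPM in ΔATG, against 987 and 869.8 CPM in WT (-0.26 ± 0.06, adjusted p = 0.00342). The difference of TRIM28 was -0.31 in letter a and -0.20 in letter b, and a link to the imprinted genes was not tested.

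Some transcription factors of later lineages, scarce in stem cells, fell. SIX3, a forebrain and eye factor, had 1 and 0 counts in ΔATG, against 25 and 26 counts in WT. The ratio of its summed counts, ΔATG over WT and scaled to the library totals as CPM are, was 0.0188. Its exact 95% interval was 4.66e-04 to 0.109, for counting error only (edgeR adjusted p = 4.85e-05). ZIC1, a zinc finger factor of the neural plate, measured 0.919 and 1.48 CPM in ΔATG, against 4.52 and 4.02 CPM in WT (-1.85 ± 0.46, adjusted p = 0.00959). POU3F2, a neural POU factor, measured 0.241 and 0.128 CPM in ΔATG and 0.218 and 0.0824 CPM in KO, against 1.07 and 0.439 CPM in WT (-1.99 ± 0.59, adjusted p = 0.0394). POU3F2 was not called with the replicate block (adjusted p = 0.0643). These 3 were the called members among 27 tested neuroectoderm genes, of which 0 rose (11.1% called, beside 3.95% of all tested genes). Of the 27 genes, 1 fell without ΔATG a, 2 without ΔATG b, 1 without WT a and 4 without WT b. TBX1, a factor of the pharyngeal arches, measured 0.0754 and 0.0365 CPM in ΔATG and 0.184 and 0.103 CPM in KO, against 1.41 and 1.21 CPM in WT (-4.46 ± 0.46, adjusted p = 9.94e-10). PRAC1, PRAC2 and HOXB13, neighbours at the end of the HOXB cluster on chromosome 17, were each at 0 or 0.0151 CPM in ΔATG and at 0.0206 to 0.0839 CPM in KO, against 0.211 to 0.491 CPM in WT, and all 3 were called. SIX3 was at 0.0335 and 0.0206 CPM in KO, and ZIC1 at 1.39 and 0.721 CPM. The KO libraries of all these genes thus lay below both WT libraries, as the ΔATG libraries did. TBX1 and the PRAC1 group were named because they were called in all 4 leave-one-out fits.

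Clustered protocadherins are cell-surface proteins whose variable exons are chosen cell by cell from neighbouring promoters on chromosome 5. Of 54 tested genes 7 fell (13%, beside 2.6% of all tested genes) and 0 rose, with a median difference of -0.32 in letter a and -0.22 in letter b. PCDHB5 measured 0.708 and 1.17 CPM in ΔATG, against 4.44 and 3.42 CPM in WT (-2.08 ± 0.26, adjusted p = 2.52e-07). PCDHGB5 measured 1.01 and 1.26 CPM in ΔATG, against 2.73 and 3.58 CPM in WT (-1.48 ± 0.30, adjusted p = 0.00129). Both genes were lower in each letter. PCDHA11 measured 0.226 and 1.404 CPM in ΔATG, against 5.54 and 3.11 CPM in WT (-2.45 ± 0.59, adjusted p = 0.00769). There ΔATG b was nearer to WT than ΔATG a was. Of the 54 protocadherins, 4 fell without ΔATG a, 4 without ΔATG b, 2 without WT a and 9 without WT b. Genes of the PCDHA cluster share exons, as do those of the PCDHG cluster, so their reads can be split between genes by the counting.

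Among zinc finger genes named ZNF some rose and others fell. Of 456 tested, 15 rose and 12 fell (5.92% called, beside 3.95% of all tested genes), and 34 rose and 22 fell with the replicate block. The falls were as frequent as among all tested genes, of which 2.6% were called lower. Of the ZNF genes, 2 rose without ΔATG a, 20 without ΔATG b, 0 without WT a and 40 without WT b. In the same order of libraries left out, the number that fell was 5 without ΔATG a, 9 without ΔATG b, 4 without WT a and 14 without WT b. ZNF880 measured 1.54 and 2.01 CPM in ΔATG, against 4.33 and 4.72 CPM in WT (-1.36 ± 0.18, adjusted p = 9.12e-07). ZNF562 measured 0.392 and 0.967 CPM in ΔATG, against 3.42 and 5.29 CPM in WT (-2.70 ± 0.59, adjusted p = 0.00296). ZNF528 measured 0.0301 and 0.219 CPM in ΔATG, against 1.25 and 0.843 CPM in WT (-3.13 ± 0.58, adjusted p = 3.25e-04). The antisense partner of the last, ZNF528-AS1, was at 0 in both ΔATG libraries, against 0.135 and 0.369 CPM in WT. Those 3 genes and the antisense RNA were lower in both letters. ZNF829 measured 7.97 and 5.54 CPM in ΔATG, against 3.15 and 3.71 CPM in WT (0.98 ± 0.21, adjusted p = 0.00178). ZNF568 measured 3.77 and 3.56 CPM in ΔATG, against 2.35 and 1.86 CPM in WT (0.80 ± 0.21, adjusted p = 0.0195). These last 2 rose, and without WT a ZNF829 (0.86) and ZNF568 (0.97) were not called. Without ΔATG a ZNF829 (0.70) was not called either. ZNF568 was not called with any 1 library left out, at 0.65 to 0.97.

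Other genes also fell in both letters. LINC01013, a long intergenic RNA, measured 94.1 and 108 CPM in ΔATG and 133 and 158 CPM in KO, against 256 and 252 CPM in WT (-1.33 ± 0.14, adjusted p = 2.02e-09). LINC01108, another such RNA, measured 12.7 and 23.8 CPM in ΔATG and 18.4 and 31.8 CPM in KO, against 46.5 and 62.7 CPM in WT (-1.58 ± 0.22, adjusted p = 2.98e-06). PRRT1, a membrane protein of synapses, measured 2.44 and 2.12 CPM in ΔATG and 4.75 and 4.53 CPM in KO, against 5.93 and 5.496 CPM in WT (-1.32 ± 0.25, adjusted p = 4.32e-04). In CPM both ΔATG libraries of these 3 genes lay below both WT libraries by more than the libraries of either group differed. CBR1, a carbonyl reductase, measured 0.573 and 0.219 CPM in ΔATG and 0.973 and 1.09 CPM in KO, against 5.42 and 4.86 CPM in WT (-3.65 ± 0.31, adjusted p = 9.20e-13). PTPRB, a receptor phosphatase of endothelium, measured 0.573 and 0.73 CPM in ΔATG and 2.21 and 1.11 CPM in KO, against 5.096 and 3.55 CPM in WT (-2.73 ± 0.49, adjusted p = 2.24e-04). In all 5 of these genes the KO libraries too lay below both WT libraries. All 5 were called with any 1 library left out. SLX1B-SULT1A4, a readthrough transcript of a duplicated region whose reads can be shared between copies, measured 3.24 and 2.19 CPM in ΔATG, against 7.06 and 12.6 CPM in WT (-1.85 ± 0.51, adjusted p = 0.0236). Its difference was -1.11 in letter a and -2.51 in letter b, and it was called in none of the 4 leave-one-out fits.

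Other genes rose in both letters. CCDC144NL-AS1, an antisense RNA, measured 52.9 and 44.97 CPM in ΔATG and 43.3 and 38.8 CPM in KO, against 22.6 and 22.9 CPM in WT (1.11 ± 0.08, adjusted p = 3.62e-16). Its difference was 1.22 in letter a and 0.97 in letter b. PSMD5, a chaperone that assembles the base of the 26S proteasome, measured 50.7 and 40.9 CPM in ΔATG and 25.3 and 19.4 CPM in KO, against 24.9 and 20.9 CPM in WT (1.002 ± 0.17, adjusted p = 9.13e-05). Its KO and WT libraries lay together, below both ΔATG libraries. CUTALP, a transcribed pseudogene that overlaps PSMD5 on the opposite strand, measured 23.6 and 21.6 CPM in ΔATG and 15.7 and 13.3 CPM in KO, against 10.8 and 12.8 CPM in WT (0.94 ± 0.14, adjusted p = 4.65e-06). ADAT1, which deaminates adenosine in alanine tRNA, measured 30.04 and 26.9 CPM in ΔATG and 29.4 and 21.9 CPM in KO, against 10.9 and 12.4 CPM in WT (1.29 ± 0.23, adjusted p = 2.10e-04). Its KO libraries too lay above both WT libraries, as did those of CCDC144NL-AS1 and CUTALP. These 4 were called in all 4 leave-one-out fits. MLKL, the effector of necroptosis, measured 4.57 and 4.81 CPM in ΔATG, against 1.12 and 1.55 CPM in WT (1.82 ± 0.40, adjusted p = 0.00267). It was called in 3 of those fits, with values of 1.59 to 2.08. BCL2L10, a BCL2 relative, measured 0.904 and 1.15 CPM in ΔATG and 1.43 and 0.804 CPM in KO, against 0.254 and 0.281 CPM in WT (1.93 ± 0.39, adjusted p = 0.00119), and KO was above WT here as well. IPO5P1, a pseudogene whose reads can be shared with IPO5, measured 26.2 and 25.9 CPM in ΔATG and 9.44 and 17.3 CPM in KO, against 7.28 and 8.94 CPM in WT (1.69 ± 0.46, adjusted p = 0.0238). Here too both KO libraries lay above both WT libraries. BCL2L10 was called in 3 and IPO5P1 in 0 of the leave-one-out fits.

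Genes that p53, a transcription factor that answers DNA damage, is known to activate were lower. Of 37 tested p53 target genes 11 fell and 0 rose (29.7% called, beside 3.95% of all tested genes), and 18 fell with the replicate block. The median of the list was -0.34, beside 0 for all tested genes, and -0.53 in letter a and -0.26 in letter b. CDKN1A, the cyclin-dependent kinase inhibitor p21, measured 5.11 and 7.17 CPM in ΔATG, against 21.5 and 10.7 CPM in WT (-1.40 ± 0.20, adjusted p = 4.67e-06). WT b lay nearer to ΔATG than WT a did, and the difference was -2.06 in letter a and -0.58 in letter b. BAX, which permeabilizes the outer mitochondrial membrane, measured 67.3 and 77.5 CPM in ΔATG, against 119.6 and 99.5 CPM in WT (-0.60 ± 0.10, adjusted p = 1.21e-04). BBC3, the BH3-only protein PUMA, measured 26.6 and 25.7 CPM in ΔATG, against 32.4 and 31.96 CPM in WT (-0.30 ± 0.09, adjusted p = 0.0447). EDA2R, a receptor of the tumour necrosis factor family, measured 4.898 and 4.304 CPM in ΔATG, against 10.4 and 7.01 CPM in WT (-0.92 ± 0.22, adjusted p = 0.00846). BTG2, an antiproliferative gene, measured 2.803 and 3.08 CPM in ΔATG, against 7.26 and 4.07 CPM in WT (-0.95 ± 0.18, adjusted p = 6.51e-04). In each of these 4 both ΔATG libraries lay below both WT libraries. MDM2, the ubiquitin ligase of p53 and itself a target, measured 66.4 and 39.6 CPM in ΔATG, against 101 and 38.4 CPM in WT and was not called (-0.39 ± 0.34, adjusted p = 0.682). Both of its libraries a were higher than both of its libraries b. Of the 37 targets, 6 fell without ΔATG a, 8 without ΔATG b, 0 without WT a and 15 without WT b. CDKN1A was -0.81 without WT a. PURPL, a non-coding RNA that p53 induces and that lowers p53, not on the list, measured 2.396 and 4.23 CPM in ΔATG, against 9.26 and 9.83 CPM in WT (-1.53 ± 0.23, adjusted p = 8.95e-06). It was called in all 4 of those fits.

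Genes of the integrated stress response, which amino acid shortage and other stresses switch on through the translation of ATF4, were higher mainly in letter a. Of 17 tested factors 5 rose and 0 fell (29.4% called, beside 3.95% of all tested genes), with medians of 1.56 in letter a and 0.02 in letter b. The median of b minus a was 1.36 in WT and -0.23 in ΔATG, so here the libraries of a letter did not deviate together. ATF5, a leucine zipper factor of this response, measured 116 and 87.9 CPM in ΔATG, against 14.2 and 43.1 CPM in WT (1.84 ± 0.26, adjusted p = 3.42e-06). Both ΔATG libraries lay above both WT libraries, with WT b between WT a and ΔATG. TRIB3, a pseudokinase that ATF4 induces, measured 69.2 and 40.8 CPM in ΔATG, against 10.7 and 28.1 CPM in WT (1.51 ± 0.30, adjusted p = 7.96e-04). CEBPB, a leucine zipper partner of ATF4, measured 74.9 and 58.4 CPM in ΔATG, against 24.9 and 57.7 CPM in WT (0.69 ± 0.19, adjusted p = 0.0277). In CEBPB WT b stood level with ΔATG b. DDIT3, the factor CHOP, measured 24.7 and 24.7 CPM in ΔATG, against 2.61 and 23.2 CPM in WT and was not called (0.94 ± 0.40, adjusted p = 0.21). There WT a alone was low. ATF4 itself, which is controlled in translation, measured 414 and 471 CPM in ΔATG, against 474 and 508 CPM in WT and was not called (-0.15 ± 0.12, adjusted p = 0.629).

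Genes that supply amino acids showed a like split between the letters. Of 23 tested genes of amino acid synthesis and uptake 7 rose and 0 fell (30.4% called, beside 3.95% of all tested genes). Medians were 0.86 in letter a and 0.07 in letter b, and the median of b minus a was 0.46 in WT and -0.24 in ΔATG. PSAT1, an aminotransferase of serine synthesis, measured 699 and 455 CPM in ΔATG, against 289 and 404 CPM in WT (0.74 ± 0.22, adjusted p = 0.0426). SLC43A1, a carrier of large neutral amino acids, measured 69.98 and 60.3 CPM in ΔATG, against 32.7 and 51.9 CPM in WT (0.62 ± 0.15, adjusted p = 0.00759). CTH, which makes cysteine, measured 59.9 and 51.7 CPM in ΔATG, against 28.8 and 46.9 CPM in WT (0.56 ± 0.16, adjusted p = 0.0256). In each, WT b was closer to ΔATG b than to WT a. ASNS, asparagine synthetase, measured 292 and 247 CPM in ΔATG, against 104 and 195 CPM in WT and was not called (0.85 ± 0.27, adjusted p = 0.0598). Of 20 tested tRNA synthetases 4 rose and 1 fell (25% called, beside 3.95% of all tested genes). Their medians were 0.22 in letter a and -0.02 in letter b. SARS1, the enzyme for serine, measured 203 and 183 CPM in ΔATG, against 111 and 163 CPM in WT (0.50 ± 0.11, adjusted p = 0.00325). AARS1, the enzyme for alanine, measured 624 and 570.01 CPM in ΔATG, against 347 and 506 CPM in WT (0.49 ± 0.14, adjusted p = 0.0264). GARS1, the enzyme for glycine, measured 455 and 362 CPM in ΔATG, against 254 and 329.97 CPM in WT (0.49 ± 0.14, adjusted p = 0.039). VARS1, the enzyme for valine, fell, at 162 and 139.6 CPM in ΔATG, against 213 and 169 CPM in WT (-0.34 ± 0.08, adjusted p = 0.00487).

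The counts of these 3 lists moved with the library left out. Of the 17 stress response factors, 2 rose without ΔATG a, 4 without ΔATG b, 1 without WT a and 12 without WT b. Of the 23 amino acid genes, 0 rose without ΔATG a, 8 without ΔATG b, 0 without WT a and 15 without WT b. Of the 20 tRNA synthetases, 0 rose without ΔATG a, 3 without ΔATG b, 0 without WT a and 4 without WT b. The summed level of the stress response factors was 2143 and 2029 CPM in ΔATG and 1785 and 1358 CPM in KO, against 1319 and 1998 CPM in WT. WT a was thus below WT b and both ΔATG libraries, and level with KO b. ATF5 was the factor still called in all 4 fits, with values of 1.24 to 2.86.

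The promoters of AARS1 and GARS1 are shown because ATF4 and C/EBP factors are known to bind the C/EBP-ATF response element, searched as TGATGNAA on both strands. Each is 300 bases of RefSeq sequence (GRCh38.p14), AARS1 at chr16:70289457-70289756 on the minus strand and GARS1 at chr7:30594628-30594927 on the plus strand. They are written 5′ to 3′ along the gene with the match in capitals, and both matches read on the reverse strand.
AARS1: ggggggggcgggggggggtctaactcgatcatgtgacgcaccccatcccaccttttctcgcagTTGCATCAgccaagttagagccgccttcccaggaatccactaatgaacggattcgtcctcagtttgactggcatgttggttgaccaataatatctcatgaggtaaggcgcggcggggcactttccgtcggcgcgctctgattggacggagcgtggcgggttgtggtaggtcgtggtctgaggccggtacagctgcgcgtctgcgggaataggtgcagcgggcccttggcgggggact
GARS1: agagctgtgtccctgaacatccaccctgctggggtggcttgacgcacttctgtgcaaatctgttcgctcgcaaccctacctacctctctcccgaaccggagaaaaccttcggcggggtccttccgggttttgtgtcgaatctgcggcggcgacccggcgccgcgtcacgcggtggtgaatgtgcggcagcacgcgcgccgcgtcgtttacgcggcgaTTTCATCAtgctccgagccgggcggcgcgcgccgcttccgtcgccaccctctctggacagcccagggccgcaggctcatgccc
These letters occur in the promoters of 7 of the 16 tested tRNA synthetases matched to RefSeq, of 5 of the 16 matched stress response factors, of 6 of the 16 matched amino acid genes, and of 4.46% of all 27305 genes with a promoter. Among called members of these lists they occur in AARS1, GARS1, CEBPG, SLC3A2 and SLC1A5. A match is a description of these letters, not a bound site.

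Some metallothionein and histone genes also differed mainly in letter a. Of the 8 tested protein-coding genes named MT1 or MT2, MT1E, MT1G, MT1H and MT2A rose, each called in 2 of the 4 leave-one-out fits. MT1X, MT1F, MT1A and MT1M were not called, and among these MT1F (-0.44) and MT1M (-1.55) were lower in ΔATG in letter b and MT1A (-1.05) in letter a. MT1E, a metallothionein, which binds zinc and copper, measured 15.6 and 9.98 CPM in ΔATG, against 1.07 and 5.57 CPM in WT (1.95 ± 0.44, adjusted p = 0.00388). MT1H, another metallothionein, measured 23.8 and 12.9 CPM in ΔATG, against 3.47 and 8.36 CPM in WT (1.63 ± 0.35, adjusted p = 0.00235). The differences of MT1E were 3.83 in letter a and 0.84 in letter b, and those of MT1H 2.76 in letter a and 0.62 in letter b. Of 56 tested replication-dependent histone genes, whose main transcripts lack poly(A) tails, 4 rose and 0 fell (7.14% called, beside 3.95% of all tested genes). H2AC6 measured 102 and 42.2 CPM in ΔATG, against 11.6 and 26.3 CPM in WT (1.93 ± 0.35, adjusted p = 2.32e-04). H2BC11 measured 15.1 and 4.61 CPM in ΔATG, against 2.201 and 2.77 CPM in WT (1.99 ± 0.56, adjusted p = 0.0278). In both, ΔATG a was the highest library. Of the 56 histone genes, 0 rose without ΔATG a, 4 without ΔATG b, 0 without WT a and 3 without WT b. Without WT a MT1E was 1.19 and not called.

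Host genes of small nucleolar RNAs moved both ways: 5 of 19 tested rose and 2 fell (36.8% called, beside 3.95% of all tested genes). With the replicate block 8 rose and 2 fell. SNHG17 measured 45.8 and 33.98 CPM in ΔATG, against 18.6 and 27.6 CPM in WT (0.79 ± 0.14, adjusted p = 1.99e-04). SNHG32 measured 118 and 103 CPM in ΔATG, against 58.6 and 79.7 CPM in WT (0.68 ± 0.09, adjusted p = 2.36e-06). SNHG1 measured 380.2 and 326 CPM in ΔATG, against 180.1 and 287 CPM in WT (0.59 ± 0.12, adjusted p = 0.00103). In all 3 WT a was the lowest library. SNHG3 fell, at 93.8 and 97.1 CPM in ΔATG, against 140.1 and 116 CPM in WT (-0.43 ± 0.07, adjusted p = 5.22e-05). SNHG16 fell too, at 105 and 106 CPM in ΔATG, against 144 and 126 CPM in WT (-0.36 ± 0.06, adjusted p = 2.19e-04). SNHG32 was called with each library left out. Of the 19 host genes, 1 rose without ΔATG a, 5 without ΔATG b, 1 without WT a and 7 without WT b.

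Several single genes with a large rise also differed more in letter a. ADGRD1, an adhesion receptor, measured 5.32 and 5.398 CPM in ΔATG, against 0.999 and 2.37 CPM in WT (1.67 ± 0.41, adjusted p = 0.00867). BEST1, a chloride channel, measured 7.87 and 6.402 CPM in ΔATG, against 1.27 and 3.69 CPM in WT (1.53 ± 0.35, adjusted p = 0.00508). DHRS2, a dehydrogenase, measured 10.7 and 8.28 CPM in ΔATG, against 2.27 and 4.85 CPM in WT (1.41 ± 0.28, adjusted p = 7.80e-04). THORLNC, a non-coding RNA, measured 3.75 and 4.01 CPM in ΔATG, against 0.863 and 2.002 CPM in WT (1.44 ± 0.35, adjusted p = 0.00904). In all 4 WT a was the lowest library, and none of these 4 was called without it.

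**Figure D3:**
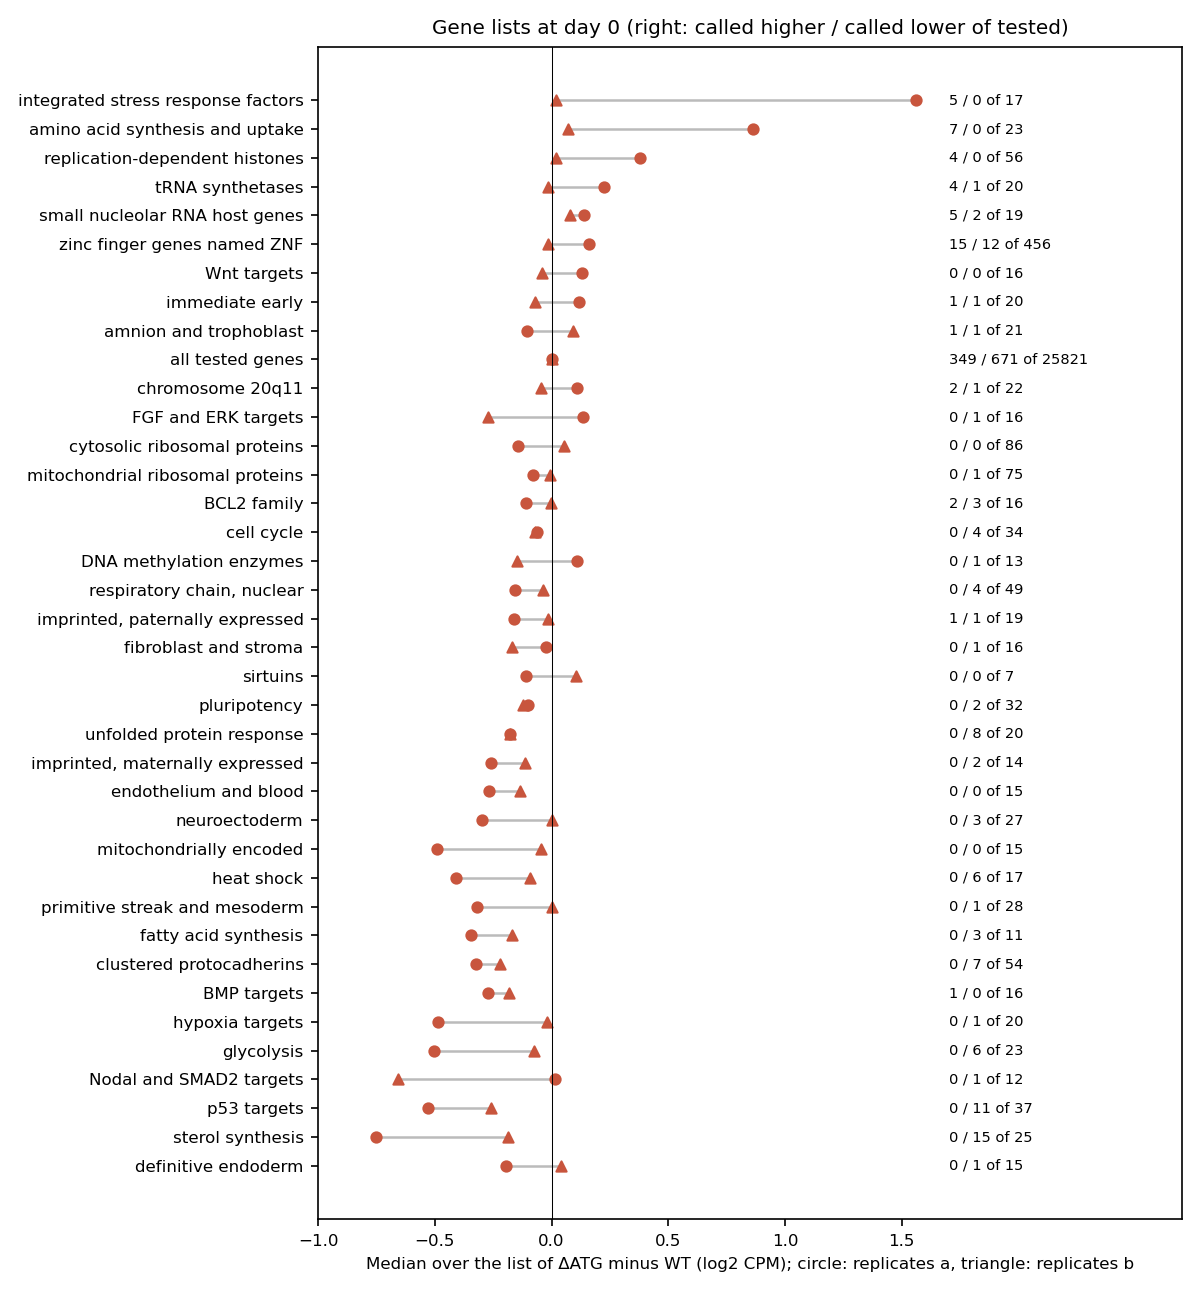
Median over the tested members of each gene list of ΔATG minus WT in log2 CPM, circles for replicate letter a and triangles for letter b, with the numbers called higher and lower of those tested at the right; all tested genes are one of the lines. Stress response, amino acid, sterol and glycolysis lists differ mainly in letter a, and the unfolded protein response, protocadherin and p53 lists lie below 0 in both letters.

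Sterol synthesis was the list with the largest share of called members. These genes make cholesterol from acetyl-CoA or take it up, and SREBP2 is known to drive them together. Of 25 tested genes 15 fell and 0 rose (60% called, beside 2.6% of all tested genes called lower). The median was -0.43, and -0.75 in letter a and -0.19 in letter b. HMGCS1, which makes HMG-CoA, measured 105 and 89.7 CPM in ΔATG, against 309.7 and 126 CPM in WT (-1.16 ± 0.20, adjusted p = 1.01e-04). INSIG1, which holds SREBP in the endoplasmic reticulum, measured 19.2 and 20.9 CPM in ΔATG, against 48.7 and 27.9 CPM in WT (-0.93 ± 0.15, adjusted p = 2.52e-05). In both genes the ΔATG libraries lay below both WT libraries, and WT a was far above WT b. The sterol regulatory element, searched as TCACNCCAC on both strands of the same promoter windows, occurs in 1 of the 18 sterol genes matched to RefSeq, in 0 of the called ones among them, and in 1.39% of all 27305 genes with a promoter. A window without a match lacks these letters, and nothing more is read from it.

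The summed level of the 25 sterol genes was 2123 and 1943 CPM in ΔATG, against 3322 and 2250.2 CPM in WT. Of the 25 sterol genes, 11 fell without ΔATG a, 11 without ΔATG b, 1 without WT a and 20 without WT b. HMGCS1 was -0.37 without WT a. Of 11 tested genes of fatty acid synthesis 3 fell and 0 rose (27.3% called, beside 3.95% of all tested genes), and 5 fell with the replicate block. FASN, fatty acid synthase, measured 795 and 734 CPM in ΔATG, against 1269.8 and 929 CPM in WT (-0.52 ± 0.08, adjusted p = 1.24e-05). ACLY, which makes cytosolic acetyl-CoA, measured 356 and 308 CPM in ΔATG, against 492 and 368 CPM in WT (-0.37 ± 0.09, adjusted p = 0.00904). WT a was the highest library in both, and without WT a 0 of the 11 were called.

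**Figure D4:**
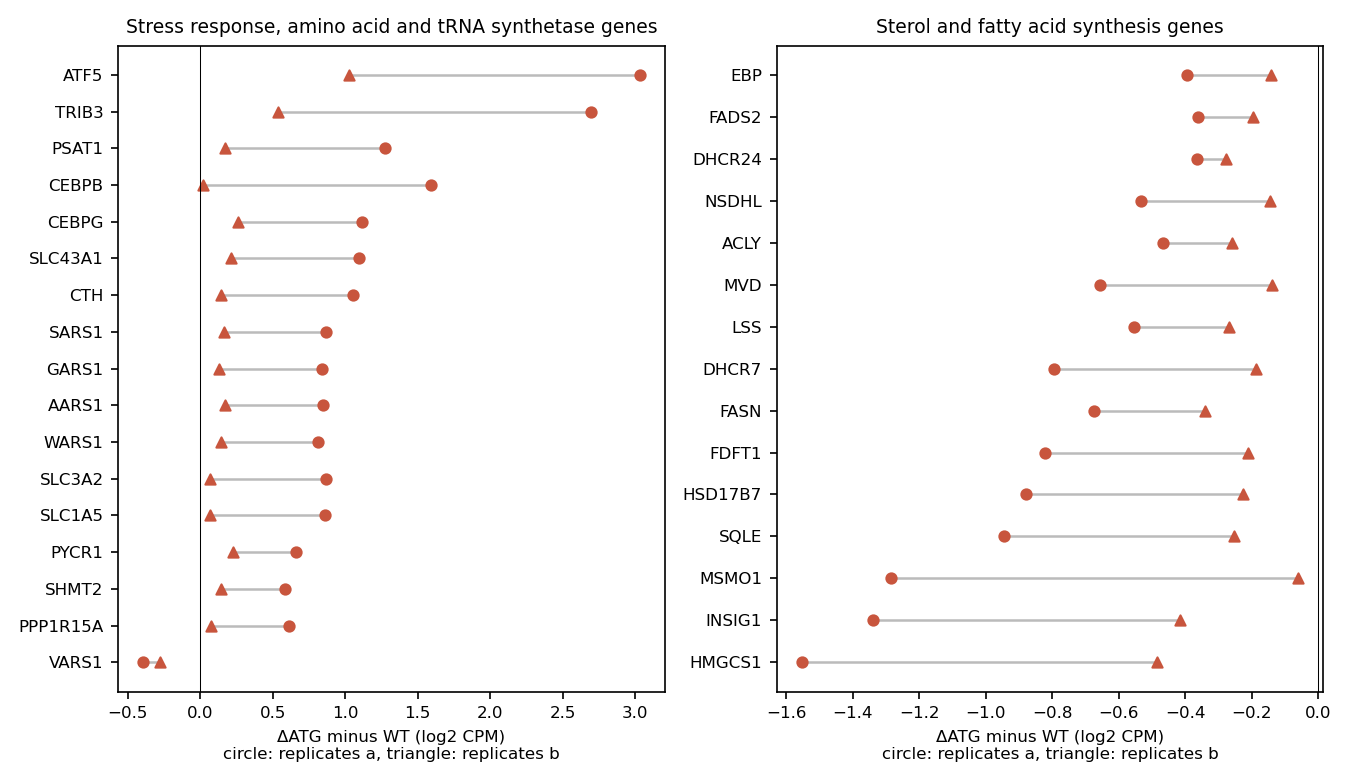
ΔATG minus WT in log2 CPM within letter a (circles) and letter b (triangles) for called members of the stress response, amino acid and tRNA synthetase lists (left) and of the sterol and fatty acid synthesis lists (right). In every gene shown the difference has the same sign in both letters and is larger in letter a.

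Chaperones of the endoplasmic reticulum were lower. Of 20 tested genes of the unfolded protein response, which raises the folding capacity of that compartment, 8 fell and 0 rose (40% called, beside 3.95% of all tested genes). Their medians were -0.18 in letter a and -0.18 in letter b. HSPA5, the chaperone BiP, measured 336 and 313 CPM in ΔATG, against 569 and 432 CPM in WT (-0.63 ± 0.08, adjusted p = 9.12e-07). CALR, calreticulin, measured 686 and 662 CPM in ΔATG, against 943 and 798 CPM in WT (-0.37 ± 0.05, adjusted p = 7.12e-06). HSPA5 differed by -0.76 in letter a and -0.47 in letter b, and CALR by -0.46 in letter a and -0.27 in letter b. Both were called with each library left out. SDF2L1, which works with BiP, measured 10.5 and 11.8 CPM in ΔATG, against 18.4 and 16.03 CPM in WT (-0.63 ± 0.15, adjusted p = 0.00759). SYVN1, a ubiquitin ligase of that compartment, measured 38.9 and 49.7 CPM in ΔATG, against 59.8 and 56.3 CPM in WT (-0.39 ± 0.10, adjusted p = 0.0126). Of the 20 genes, 4 fell without ΔATG a, 6 without ΔATG b, 2 without WT a and 7 without WT b.

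The promoters of HSPA5 and CALR are shown because the endoplasmic reticulum stress element, searched as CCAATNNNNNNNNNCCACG on both strands, is known from them. Each is 300 bases of RefSeq sequence (GRCh38.p14), HSPA5 at chr9:125241294-125241593 on the minus strand and CALR at chr19:12938359-12938658 on the plus strand, 5′ to 3′ along the gene. The match is in capitals, and the match in CALR reads on the reverse strand.
HSPA5: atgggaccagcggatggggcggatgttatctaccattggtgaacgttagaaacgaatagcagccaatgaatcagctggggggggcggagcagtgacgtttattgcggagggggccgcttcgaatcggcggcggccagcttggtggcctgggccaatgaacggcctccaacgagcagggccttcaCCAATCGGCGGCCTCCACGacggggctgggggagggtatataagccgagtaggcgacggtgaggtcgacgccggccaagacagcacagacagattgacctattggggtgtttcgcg
CALR: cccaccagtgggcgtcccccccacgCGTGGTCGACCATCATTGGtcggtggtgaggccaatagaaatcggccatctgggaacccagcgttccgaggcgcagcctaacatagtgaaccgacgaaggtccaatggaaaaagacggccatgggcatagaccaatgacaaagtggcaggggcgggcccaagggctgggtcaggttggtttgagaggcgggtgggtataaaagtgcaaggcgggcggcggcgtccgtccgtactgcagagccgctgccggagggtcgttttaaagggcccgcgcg
These letters occur in the promoters of 7 of the 20 tested genes of the list, all of them matched to RefSeq, and in 0.0916% of all 27305 genes (25 genes). Of the 8 members that fell 4 hold them, HSPA5, HSP90B1, CALR and CRELD2. This again describes letters only.

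Heat shock and glycolysis genes fell mainly in letter a. Of 17 tested heat shock genes 6 fell and 0 rose (35.3% called, beside 3.95% of all tested genes). Medians of the list were -0.41 in letter a and -0.09 in letter b. HSPA5, described above as called with each library left out, is 1 of the 6 and is counted in both lists. HSPA8, the constitutive cytosolic HSP70, measured 379 and 456 CPM in ΔATG, against 887 and 558 CPM in WT (-0.79 ± 0.12, adjusted p = 1.37e-05). HSPA1A, the inducible HSP70, measured 27.8 and 35.3 CPM in ΔATG, against 67.1 and 34.4 CPM in WT (-0.69 ± 0.17, adjusted p = 0.00813). For HSPA1A WT a alone was high, and its reads can be shared with the near-identical HSPA1B. Of the 17 heat shock genes, 4 fell without ΔATG a, 5 without ΔATG b, 1 without WT a and 12 without WT b. Of 23 tested glycolysis genes 6 fell and 0 rose (26.1% called, beside 3.95% of all tested genes). Medians were -0.51 in letter a and -0.07 in letter b, and the median of b minus a was -0.37 in WT and 0.09 in ΔATG. PFKFB3, which makes the activator of phosphofructokinase, measured 30.5 and 31.8 CPM in ΔATG, against 81.4 and 36.9 CPM in WT (-0.93 ± 0.21, adjusted p = 0.00475). PGK1, phosphoglycerate kinase, measured 531 and 613 CPM in ΔATG, against 922 and 667 CPM in WT (-0.48 ± 0.14, adjusted p = 0.0472). WT b was near ΔATG in both. PFKFB4, a relative of PFKFB3, measured 34.4 and 42.02 CPM in ΔATG, against 80.9 and 42.04 CPM in WT (-0.69 ± 0.21, adjusted p = 0.0486). PFKFB4 was not called with the replicate block (adjusted p = 0.0646). Of the 23 glycolysis genes, 0 fell without ΔATG a, 3 without ΔATG b, 0 without WT a and 14 without WT b. Of 20 tested hypoxia targets PFKFB4 alone fell and 0 rose (5% called, near the 3.95% of all tested genes).

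The factors that define pluripotent cells were not called. POU5F1, the factor OCT4, measured 1667 and 1734 CPM in ΔATG, against 1870.3 and 1815 CPM in WT (-0.12 ± 0.08, adjusted p = 0.574). SOX2 measured 368 and 342 CPM in ΔATG, against 377 and 324 CPM in WT (0.02 ± 0.11, adjusted p = 0.999). NANOG measured 109 and 61.9 CPM in ΔATG, against 71.3 and 84.8 CPM in WT (0.14 ± 0.29, adjusted p = 0.928). For NANOG ΔATG a was the highest and ΔATG b the lowest of the 4 libraries. Of 32 tested pluripotency genes 2 fell and 0 rose (6.25% called, beside 3.95% of all tested genes), and 4 fell with the replicate block. GDF3, a ligand of the TGF-beta family, measured 4.13 and 6.31 CPM in ΔATG, against 13.98 and 8.89 CPM in WT (-1.14 ± 0.21, adjusted p = 3.55e-04). UTF1, a chromatin factor of stem cells, measured 16.3 and 15.2 CPM in ΔATG, against 30.7 and 24.5 CPM in WT (-0.81 ± 0.16, adjusted p = 7.62e-04). Without WT a GDF3 was -0.78 and UTF1 -0.65, and neither was called. SIRT6, the known partner of the RNA, measured 19.1 and 22.3 CPM in ΔATG, against 24.8 and 23.7 CPM in WT and was not called (-0.23 ± 0.11, adjusted p = 0.299), but passed with the replicate block (adjusted p = 0.0381). Of 7 tested sirtuins 0 were called by edgeR, DESeq2 or voom, and 2 had an unadjusted p under 0.05.

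Markers of differentiation showed few calls at day 0. Of 28 tested genes of primitive streak and mesoderm 0 rose and 1 fell, TBX20, on 2 and 0 counts in ΔATG, against 14 and 2 counts in WT. Definitive endoderm had 15 tested genes, of which 0 rose and 1 fell. CXCR4, a chemokine receptor also made by stem cells and the endoderm gene that fell, measured 0.618 and 0.62 CPM in ΔATG, against 2.45 and 0.948 CPM in WT (-1.46 ± 0.26, adjusted p = 1.65e-04). In 21 tested amnion and trophoblast genes there was 1 rise, IGFBP3, which binds insulin-like growth factors, at 17.2 and 16.9 CPM in ΔATG, against 10.4 and 13.5 CPM in WT (0.51 ± 0.15, adjusted p = 0.0448). The 1 fall there was KRT8, a keratin of simple epithelia, at 383 and 376 CPM in ΔATG, against 478 and 443 CPM in WT (-0.28 ± 0.07, adjusted p = 0.00807). TAGLN, an actin-binding protein of smooth muscle and the 1 gene called among 16 of fibroblast and stroma, measured 32.1 and 30.6 CPM in ΔATG, against 56.5 and 46.7 CPM in WT (-0.72 ± 0.13, adjusted p = 3.88e-04). Of 15 tested genes of endothelium and blood 0 were called by edgeR, 1 by DESeq2 and 1 by voom, and 2 had an unadjusted p under 0.05. FOSL1, a partner of JUN that ERK raises, measured 2.17 and 2.06 CPM in ΔATG, against 6.79 and 4.09 CPM in WT (-1.36 ± 0.30, adjusted p = 0.00288). ID4, an inhibitor of helix-loop-helix factors, measured 11.1 and 7.42 CPM in ΔATG, against 4.96 and 5.94 CPM in WT (0.77 ± 0.18, adjusted p = 0.0043). CCN2, a matricellular growth factor, measured 95.2 and 59.3 CPM in ΔATG, against 47.998 and 52.8 CPM in WT (0.62 ± 0.16, adjusted p = 0.018). Of these, CXCR4, TAGLN and FOSL1 were called in 3 of the 4 leave-one-out fits, ID4 and CCN2 in 2, and IGFBP3 and KRT8 in 1. In the lists of signalling targets, FOSL1 was the 1 gene called of 16 tested FGF and ERK targets, GDF3 of 12 Nodal and SMAD2 targets and ID4 of 16 BMP targets. FOSL1 and CCN2 were those called of 20 immediate early genes. Of 16 tested Wnt targets 0 were called by edgeR, DESeq2 or voom, and 0 had an unadjusted p under 0.05.

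Some genes of growth and respiration fell. Of 34 tested cell cycle genes 4 fell and 0 rose (11.8% called, beside 2.6% of all tested genes called lower), and 8 fell with the replicate block. Of the 34 genes, 0 fell without ΔATG a, 1 without ΔATG b, 0 without WT a and 5 without WT b. RRM2, a subunit of ribonucleotide reductase, measured 88.1 and 77.9 CPM in ΔATG, against 145 and 94.7 CPM in WT (-0.53 ± 0.16, adjusted p = 0.0461). CCNB1, a mitotic cyclin, measured 144 and 166 CPM in ΔATG, against 221 and 185 CPM in WT (-0.39 ± 0.08, adjusted p = 0.00117). Of 49 tested nuclear genes of the respiratory chain 4 fell and 0 rose (8.16% called, beside 3.95% of all tested genes), and 10 fell with the block. The 4 were CHCHD2, ATP5MC3, and SDHA (-0.33 ± 0.08, adjusted p = 0.0073) and SDHB (-0.28 ± 0.08, adjusted p = 0.0357), both subunits of succinate dehydrogenase. Of the 49 genes, 1 fell without ΔATG a, 4 without ΔATG b, 1 without WT a and 5 without WT b. The 15 transcripts made in mitochondria summed to 42215 and 78752 CPM in ΔATG, against 56238 and 78669 CPM in WT, higher in libraries b than in libraries a of both lines. Of these 15, 0 were called by edgeR, DESeq2 or voom, and 2 had an unadjusted p under 0.05. Of 86 tested cytosolic ribosomal protein genes 0 were called by those tools, 4 had an unadjusted p under 0.05 and 5 were called with the block. Of 75 mitochondrial ribosomal protein genes MRPL44 fell (-0.26 ± 0.08, adjusted p = 0.0337). In the BCL2 family 2 of 16 tested genes rose and 3 fell, and 0 were called without WT a. BCL2L1, an anti-apoptotic gene of chromosome 20q11, measured 108 and 115 CPM in ΔATG, against 86.6 and 98.9 CPM in WT (0.27 ± 0.07, adjusted p = 0.0111). BMF, a BH3-only gene, measured 42.4 and 44.5 CPM in ΔATG, against 64.6 and 51.1 CPM in WT (-0.41 ± 0.10, adjusted p = 0.00957).

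Gain of chromosome 20q11 is common in cultured stem cells, so that region was listed. Of 22 tested genes there 2 rose, BCL2L1 and PDRG1, and 1 fell, ASXL1 (13.6% called, beside 3.95% of all tested genes). The median of the list was -0.01. PDRG1 measured 22.3 and 23.7 CPM in ΔATG, against 16.98 and 20.1 CPM in WT (0.31 ± 0.08, adjusted p = 0.0185). ASXL1, a chromatin regulator, measured 17.996 and 19.6 CPM in ΔATG, against 27.2 and 25.3 CPM in WT (-0.48 ± 0.11, adjusted p = 0.00398). Across the 22 autosomes and the X chromosome 2.43% to 5.77% of the tested genes of a chromosome were called, and the medians of the log2 fold change ran from -0.04 to 0.03.

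Over days 1 to 5 of differentiation the same lines were compared with other ΔATG and WT libraries. Of the 671 genes that fell at day 0, 217 (32.3%) also fell in BMP4, where 8.1% of all tested genes fell. In SMADi 349 (52%) fell, beside 24.9% of all tested genes, and in Endo 371 (55.3%), beside 17.2%. Of the 349 that rose at day 0, 64 (18.3%) also rose in BMP4, beside 7.64% of all tested genes. In SMADi 130 (37.2%) rose, beside 20.9%, and in Endo 105 (30.1%), beside 17.6%. Opposite calls were found for 62 of the genes that fell at day 0 in BMP4, 143 in SMADi and 78 in Endo, and for 25 of those that rose in BMP4, 96 in SMADi and 81 in Endo. In all 3 protocols 123 genes were called in the day 0 direction, 17 higher and 106 lower, of which 39 were also called in all 4 leave-one-out fits at day 0. That count of 123 was 218 with the replicate block, 78 without ΔATG a and 55 without WT a.

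The deepest falls at day 0 were also seen in those libraries. CHCHD2 ran from 0 to 0.0389 CPM in the 30 later ΔATG libraries, against 40.9 to 129.8 CPM in the 30 of WT. CEBPZOS ran from 0 to 1.28 CPM in ΔATG, against 14.5 to 71.2 CPM in WT. In neither gene did a ΔATG library reach the lowest WT library. H19 was lower in ΔATG on each of the 15 days of the 3 protocols, with -4.09 ± 0.14 in BMP4, -4.74 ± 0.21 in SMADi and -4.50 ± 0.69 in Endo. PURPL was -1.31 ± 0.11 in BMP4, -3.41 ± 0.11 in SMADi and -3.74 ± 0.13 in Endo. PCDHB5 was -2.04 ± 0.12 in BMP4, -3.45 ± 0.11 in SMADi and -3.95 ± 0.12 in Endo, called in each. MEG3 fell in BMP4 (-2.58 ± 0.22, adjusted p = 8.57e-14) and SMADi (-1.11 ± 0.20, adjusted p = 7.86e-06) and was not called in Endo (-0.04 ± 0.18, adjusted p = 0.98).

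Among rises, PSMD5 was higher on all 15 days, by 1.09 ± 0.08 in BMP4, 1.11 ± 0.08 in SMADi and 0.94 ± 0.08 in Endo, beside 1.002 ± 0.17 at day 0. CCDC144NL-AS1 and CUTALP were also higher on all 15 days. LINC01515 measured 6.21 and 5.56 CPM in ΔATG, against 2.61 and 3.55 CPM in WT (0.94 ± 0.15, adjusted p = 4.77e-05). SLC16A9, a carnitine carrier, measured 33.3 and 22.9 CPM in ΔATG, against 14.7 and 15.3 CPM in WT (0.90 ± 0.20, adjusted p = 0.00398). Both also rose in all 3 protocols. ATF5, which differed mainly in letter a at day 0, was not called in BMP4 (0.08 ± 0.12, adjusted p = 0.757) or Endo (-0.03 ± 0.12, adjusted p = 0.948) and rose in SMADi (0.46 ± 0.12, adjusted p = 9.56e-04). HMGCS1 was not called in BMP4 (-0.02 ± 0.09, adjusted p = 0.988) or SMADi (-0.03 ± 0.09, adjusted p = 0.854) and fell in Endo (-0.56 ± 0.09, adjusted p = 4.67e-07).

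**Figure D5:**
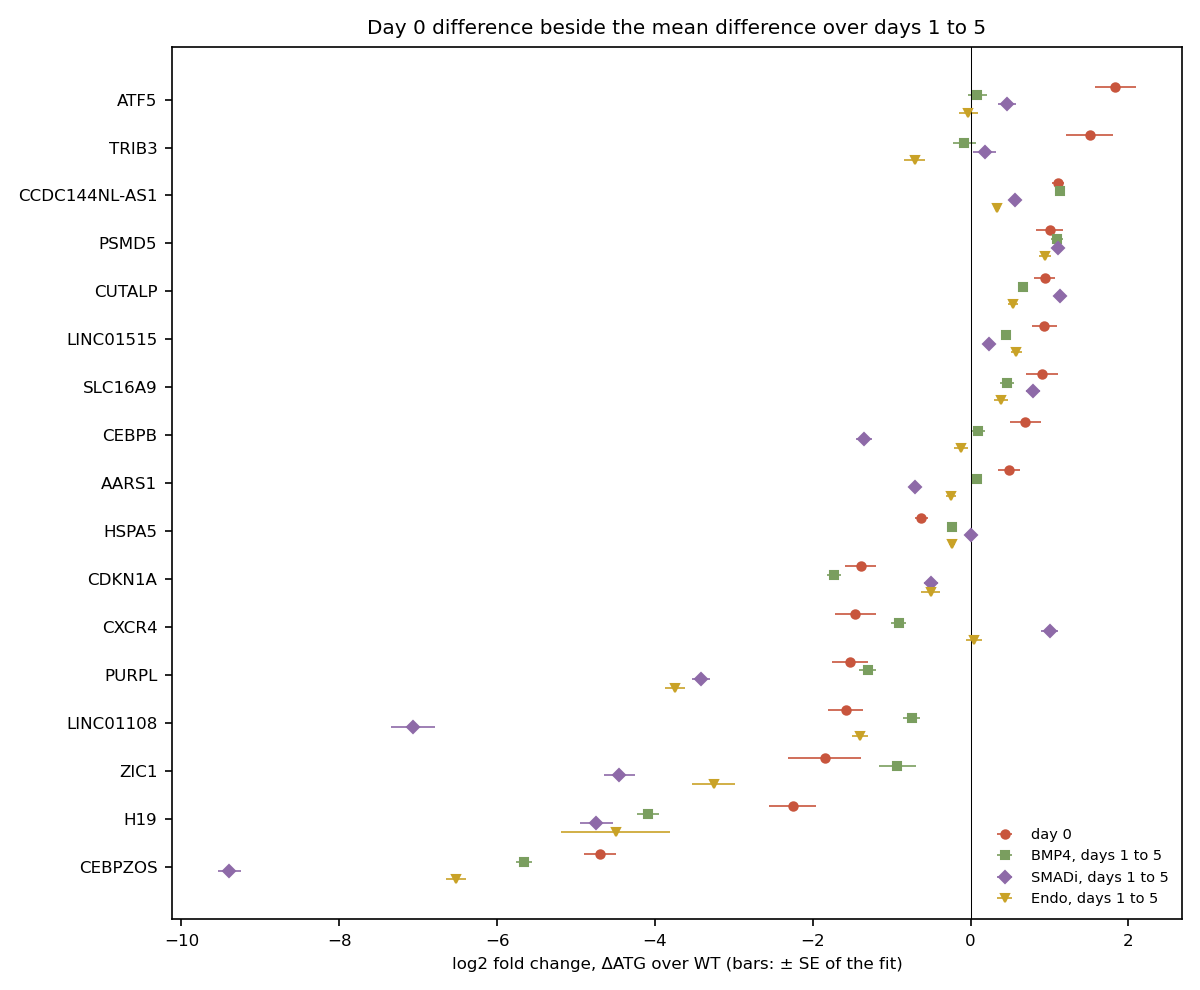
Log2 fold change of ΔATG over WT with the SE of the fit at day 0 and as the mean over days 1 to 5 of BMP4, SMADi and Endo, for genes called in the same direction in all 3 protocols and for 6 others (ATF5, TRIB3, CEBPB, AARS1, HSPA5 and CXCR4). CEBPZOS, H19, ZIC1, LINC01108, PURPL and CDKN1A lie left of 0 and PSMD5, CUTALP and CCDC144NL-AS1 right of 0 at every mark, while ATF5, TRIB3, CEBPB, AARS1, HSPA5 and CXCR4 have marks on both sides of 0 or at it.

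A direct test of ΔATG against KO, the other edit of LNCPRESS1, called 752 genes at day 0 (2.91% of those tested), 417 higher (1.61%) and 335 lower (1.3%). With the replicate block it called 2177 (8.43%). Leaving out 1 library gave 121 calls without ΔATG a, 1412 without ΔATG b, 2889 without KO a and 93 without KO b. CHCHD2 and CEBPZOS were lower in ΔATG than in KO, CEBPZOS at 1.91 and 2.41 CPM in ΔATG, against 62.4 and 63.4 CPM in KO (-4.87 ± 0.20, adjusted p = 9.58e-26). H19 was lower in ΔATG too (-2.20 ± 0.30, adjusted p = 1.31e-06). So were PURPL (-1.60 ± 0.23, adjusted p = 3.08e-06), CDKN1A (-1.68 ± 0.20, adjusted p = 4.44e-08) and BAX (-0.61 ± 0.10, adjusted p = 1.01e-04). PSMD5 was higher in ΔATG than in KO (1.03 ± 0.17, adjusted p = 5.67e-05). MLKL was higher too, at 4.57 and 4.81 CPM in ΔATG, against 0.654 and 0.886 CPM in KO (2.61 ± 0.41, adjusted p = 2.68e-05).

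Other named genes were not called between the 2 edits, which does not show that they are equal. MEG3 measured 0.0754 and 0.128 CPM in ΔATG, against 0.101 and 0.907 CPM in KO (-2.24 ± 0.71, adjusted p = 0.0703), with KO a as low as ΔATG. LINC01108 was at 12.7 and 23.8 CPM in ΔATG, against 18.4 and 31.8 CPM in KO (-0.46 ± 0.22, adjusted p = 0.329). ZIC1 was at 0.919 and 1.48 CPM in ΔATG, against 1.39 and 0.721 CPM in KO (0.14 ± 0.53, adjusted p = 0.978). HMGCS1 (-0.54 ± 0.20, adjusted p = 0.139), HSPA5 (-0.23 ± 0.08, adjusted p = 0.143) and LINC01515 (0.03 ± 0.15, adjusted p = 0.984) were not called either. In turn, NANOG was called higher in ΔATG, at 109 and 61.9 CPM in ΔATG, against 60.7 and 16.6 CPM in KO (1.14 ± 0.30, adjusted p = 0.0193), with KO b the lowest of the 6 day 0 libraries. ATF5 was also called higher in ΔATG, at 116 and 87.9 CPM in ΔATG, against 63.6 and 18.4 CPM in KO (1.31 ± 0.26, adjusted p = 9.56e-04), and KO b was again the lowest of these 4 libraries.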

How the data were processed

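The deposited values are estimated counts per gene (expected_counts), which the authors left with decimals, for 62703 genes in 120 libraries. The build is GRCh38, per the submitters' processing notes, and libraries were stranded and poly(A) selected, per the labels' protocols. The aligner, quantifier and gene models were not given in the sources used here. Positions came from GENCODE 29, which held 58279 identifiers, and promoters from RefSeq. Counts were rounded and fitted in R 4.3.3 with edgeR 4.0.16: filterByExpr (25821 genes, 99.98% to 99.99% of each library's counts), TMM scaling and 1 mean per group over the 96 libraries of the differentiation experiment (48 groups), which lend their spread to these 2 libraries a group. The test was the two-sided quasi-likelihood F test with Benjamini-Hochberg adjustment over all tested genes. The SE is the log2 fold change divided by the square root of F, and log2 CPM used a prior count of 2.

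The test ran with legacy set to TRUE. On simulated data (25618 genes) for ΔATG against WT at day 0, 28 of 100 changes of 0.5 (log2) were found and 72 of 100 of 1, with 5 unchanged genes called. The simulated spread followed the trend over all 96 libraries and held no deviation shared by a letter. Libraries a and b differed more at day 0 than in most groups, so the simulation does not give the number of false calls in the real comparison. Letters were taken as pairs from the values, since no label names a batch: the differences b minus a correlated at 0.37 between ΔATG and WT, 0.69 between ΔATG and KO and 0.35 between KO and WT over 14349 genes. The median absolute log2 difference between libraries a and b was 0.213 in ΔATG, 0.263 in KO and 0.193 in WT at day 0, against 0.0718 to 0.251 in the other 45 groups. Alternatives were the size factors of DESeq2 1.42.0 in edgeR, DESeq2, limma 3.58.1 voom, no filter, the replicate block, fits of the 4 or 6 libraries and each library left out. Legacy set to FALSE, and each KO library left out, were added after the data were seen.

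Named genes are LNCPRESS1 and its tested neighbours; the 12 largest rises and 12 largest falls among called genes averaging at least 1 in log2 CPM, with no overlap and a difference of at least 0.5 in both letters; up to 3 called members each way of each of 37 lists; 15 genes fixed by name; and the 6 largest rises and falls called in all 3 protocols. PCDHGB5 and the genes noted as called in every leave-one-out fit were named after their values were seen. The comparison and the lists were chosen with earlier results of these data known. A few genes are not reported here.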

Additional observations from a re-analysis of the deposited data

Results flagged for a closer look

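The genes below were called at day 0 and called the opposite way over days 1 to 5 of a protocol, and the test of the day 0 difference minus the later one was called (edgeR quasi-likelihood test, adjusted p of at most 7.83e-04). Genes picked for opposite calls in the same fit are nearly sure to pass that test, so it adds no support to the day 0 values. Each value is that difference of differences on the log2 scale, after the day 0 and the later log2 fold change of ΔATG over WT. All compare n = 2 libraries a group and day, and the later values use other libraries.

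Some metallothionein, stress response, amino acid and tRNA synthetase genes rose at day 0 and fell in the protocol given. MT1E was 1.95 at day 0 and -0.77 in BMP4 (difference 2.72) and -2.03 in SMADi (difference 3.98). MT1H was 1.63 at day 0 and -1.12 in BMP4 (difference 2.76) and -1.49 in SMADi (difference 3.12). TRIB3 was 1.51 at day 0 and -0.71 in Endo (difference 2.22). CEBPB was 0.69 at day 0 and -1.35 in SMADi (difference 2.04). SLC43A1 was 0.62 at day 0 and -1.37 in SMADi (difference 1.996), and it rose in Endo (0.19). CTH was 0.56 at day 0 and -0.43 in SMADi (difference 0.99). SARS1 was 0.50 at day 0 and -0.19 in SMADi (difference 0.68) and -0.31 in Endo (difference 0.81). GARS1 was 0.49 at day 0 and -0.35 in SMADi (difference 0.83) and -0.31 in Endo (difference 0.80). AARS1 was 0.49 at day 0 and -0.71 in SMADi (difference 1.19) and -0.25 in Endo (difference 0.73).

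Of other genes that rose at day 0, the following fell in the protocol given. DHRS2 was 1.41 at day 0 and -0.54 in SMADi (difference 1.96). ID4 was 0.77 at day 0 and -0.65 in SMADi (difference 1.42). BCL2L10 was 1.93 at day 0 and -0.52 in SMADi (difference 2.45). BCL2L1 was 0.27 at day 0 and -0.24 in SMADi (difference 0.51). SNHG32 was 0.68 at day 0 and -0.28 in SMADi (difference 0.96). SNHG1 was 0.59 at day 0 and -0.30 in SMADi (difference 0.90). ZNF829 was 0.98 at day 0 and -0.69 in SMADi (difference 1.67) and -0.88 in Endo (difference 1.86). ZNF233 was 0.77 at day 0 and -0.27 in SMADi (difference 1.04). ZNF568 was 0.80 at day 0 and -0.39 in Endo (difference 1.19). CCN2 was 0.62 at day 0 and -0.23 in Endo (difference 0.85). Some of these genes rose in another protocol. BCL2L10 rose in BMP4 (1.32) and Endo (0.82), as did SNHG1 (0.17 in BMP4 and 0.21 in Endo). ID4 rose in Endo (1.01), CCN2 in SMADi (1.31) and SNHG32 in BMP4 (0.17).

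Genes that fell at day 0 and rose in the protocol given included regulators of lineage, growth and lipid synthesis. BTG2 was -0.95 at day 0 and 0.93 in SMADi (difference -1.88). CXCR4 was -1.46 at day 0 and 1.0002 in SMADi (difference -2.46). POU3F2 was -1.99 at day 0 and 3.86 in SMADi (difference -5.85). TAGLN was -0.72 at day 0 and 1.75 in SMADi (difference -2.47). HSPA8 was -0.79 at day 0 and 0.17 in BMP4 (difference -0.96) and 0.16 in SMADi (difference -0.95). RRM2 was -0.53 at day 0 and 0.48 in SMADi (difference -1.01). BMF was -0.41 at day 0 and 0.55 in SMADi (difference -0.96). ASXL1 was -0.48 at day 0 and 0.64 in SMADi (difference -1.13). ACLY was -0.37 at day 0 and 0.15 in SMADi (difference -0.52). FADS2 was -0.29 at day 0 and 0.26 in SMADi (difference -0.54). SNHG3 was -0.43 at day 0 and 0.11 in BMP4 (difference -0.54) and 0.21 in Endo (difference -0.64). SNHG16 was -0.36 at day 0 and 0.12 in BMP4 (difference -0.47). Of these 39 differences, 38 were called without ΔATG a, 39 without ΔATG b, 36 without WT a and 39 without WT b. The day 0 value was called as well for 14 without ΔATG a, 31 without ΔATG b, 1 without WT a and 38 without WT b.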

How the results depend on the processing

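With 2 libraries a group the calls rest on the spread lent by all 96 libraries, and among single libraries they moved most with WT a. The 1020 calls of ΔATG against WT became 2074 with the replicate block, 1637 with DESeq2, 3 in a fit of the 4 libraries, 2 in one of the 6 day 0 libraries and 3 in that fit with the block. They ran from 108 (without WT a) to 1759 (without WT b) with 1 library left out, where the lone sample is assumed to vary like the other groups. Other settings gave 1025 (DESeq2 size factors), 1312 (voom), 1097 (no filter, 512 higher and 585 lower) and 1420 (legacy FALSE). The 752 calls of ΔATG against KO became 2177 with the block, 1186 with DESeq2, 8 with 6 libraries and 23 with 6 libraries and the block. With 1 library left out they ran from 93 to 2889, with 2889 without KO a and 93 without KO b. The 123 genes called in all 3 protocols became 218 with the block and 55 to 129 with 1 library left out. LNCPRESS1 was not called under any setting run, with values of 0.11 to 1.05 with 1 library left out.

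Of the 100 named genes called at day 0, 98 were also called with the block, 99 with DESeq2, 95 with voom, 87 with no filter, 48 without ΔATG a, 74 without ΔATG b, 21 without WT a and 93 without WT b. None of these 100 changed sign in any setting run. Signs turned for 6 uncalled genes with 1 library left out: ZNHIT1 -0.32 to 0.064, IFT22 -0.047 to 0.028, FIS1 -0.14 to 0.10, NANOG -0.33 to 0.48, MDM2 -0.92 to 0.45 and SOX2 -0.076 to 0.12. NANOG was -0.0025 with the block. DESeq2 gave no adjusted p for 2 named genes. Genes under about 1 CPM rest on few counts, and the cause of these changes was not tested.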

Other observations

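Tubulin genes, which encode the subunits of microtubules, were lower in ΔATG at day 0; they were chosen after their values were seen. Of 13 tested alpha, beta and gamma tubulin genes averaging at least 1 in log2 CPM, 9 fell and 0 rose, with a median of -0.34. Of all tested genes 2.6% were called lower. TUBB3, a beta tubulin of neurons, measured 147 and 169 CPM in ΔATG, against 280.2 and 223 CPM in WT (-0.67 ± 0.07, adjusted p = 1.12e-09). TUBB6, another beta tubulin, measured 58.8 and 64.5 CPM in ΔATG, against 111 and 91.8 CPM in WT (-0.72 ± 0.09, adjusted p = 1.95e-07). TUBB2A measured 203 and 213 CPM in ΔATG, against 343 and 271 CPM in WT (-0.56 ± 0.08, adjusted p = 5.46e-06). Those 3 and TUBB2B were called with each library left out. In each of the 3 shown WT a was the highest library.

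Other genes called in all 4 leave-one-out fits were also outside the lists. BTF3, a subunit of the complex that binds nascent proteins at the ribosome, measured 261 and 259 CPM in ΔATG and 465 and 465 CPM in KO, against 483 and 451 CPM in WT (-0.85 ± 0.05, adjusted p = 2.29e-20). Its ΔATG libraries were level with each other and below the other 4. NASP, a histone chaperone, measured 607 and 649 CPM in ΔATG, against 982 and 783 CPM in WT (-0.49 ± 0.06, adjusted p = 4.40e-07). PIWIL2, a PIWI protein of the germ line, measured 5.32 and 3.39 CPM in ΔATG, against 12.1 and 9.59 CPM in WT (-1.31 ± 0.19, adjusted p = 6.40e-06). S100A6, a calcium-binding protein, measured 2.94 and 3.301 CPM in ΔATG and 14.2 and 18.4 CPM in KO, against 7.31 and 7.55 CPM in WT (-1.25 ± 0.18, adjusted p = 5.09e-06). TADA2A, an adaptor of histone acetyltransferases, measured 24.5 and 27.9 CPM in ΔATG, against 14.1 and 17.5 CPM in WT (0.73 ± 0.10, adjusted p = 1.76e-06). GDF11, a ligand of the TGF-beta family, measured 34.3 and 33.9 CPM in ΔATG, against 22.7 and 25.2 CPM in WT (0.51 ± 0.08, adjusted p = 6.23e-05).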
